A study of Homo sapiens with 12 samples.

Results

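The zinc finger gene clusters of human chromosome 19 were described here through the poly(A) sites that lie in them. The members were all sites, on both strands, at hg19 positions 19850000 to 24300000 (called the pericentromeric cluster below), 52400000 to 53950000 (the middle cluster) and 57000000 to 58850000 (the telomeric cluster), with at least 10 reads summed over the libraries of a table. This rule was met by 380 sites of the pull-downs, out of 640413 sites counted and 85917 sites with at least 10 reads. The pericentromeric cluster held 123 of them, the middle cluster 96 and the telomeric cluster 161. In the fractions 111 sites met it, out of 189010 and of 31599 with at least 10 reads. The comparison set was the remainder of chromosome 19, with 4173 sites in the pull-downs and 1502 in the fractions.

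All RNA came from HEK293T, a human embryonic kidney cell line, and was sequenced with 3'READS+, which reads the last bases before the poly(A) tail and so counts the 3' ends of transcripts. For the pull-downs, cells of the STAU1-KO line C8, made by double nicking with Cas9n, were transfected to express FLAG-GFP or, in the other arm, STAU1-FLAG for a short time. Poly(A)+ RNA was taken both from the lysate (input) and from what an anti-FLAG antibody brought down (IP). This gave 4 groups of 2 libraries, STAU1 IP, STAU1 input, GFP IP and GFP input, and every one of them lacked the endogenous STAU1. For the fractions, poly(A)+ RNA of the cytoplasm and of polysomes was taken from STAU1-KO and wild-type cells. Each of these 4 conditions has a single library and so no replicate. The protocols name C8 and an isogenic control line, C9, so that each genotype appears to be 1 line, and the tagged protein was supplied by transient transfection. The labels do not say whether replicates came from separate cultures, so a p-value here covers only the spread between libraries, which may be technical. The study asked how STAU1 binding differs between transcripts with alternative 3' ends and how it relates to polysomes.

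KRAB zinc finger genes are a large family that arose by repeated tandem duplication, and many lie side by side on chromosome 19. A typical member pairs an array of C2H2 zinc fingers, which bind DNA, with a KRAB domain that recruits the corepressor TRIM28 and, through it, enzymes that make heterochromatin, often at transposable elements. STAU1 is a double-stranded-RNA-binding protein known for roles in mRNA localization, translation and decay. The crowding of the family shows in the RefSeq gene table of GRCh38.p14, where 250 of 517 protein-coding genes with a ZNF symbol (48.4%) are on chromosome 19 and the longest row of neighbouring zinc finger genes holds 27. That build differs from hg19, and the count tables pair no site with a gene. Whether a site belongs to a zinc finger gene, or lies in an exon, an intron or a 3' UTR, was therefore not determined, and sites are named by strand and position. Zinc finger genes are also close paralogs, so that reads from near-identical copies may be split or lost in the alignment, which was not tested.

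The clusters were low in reads, with a single exception. Their sites had a median of 24 reads over the 8 pull-down libraries, against 29 at the other chromosome 19 sites, and 5.26% of them reached 300 reads, against 17.7%. Sites were nearest to each other in the telomeric cluster, with 87.0 per Mb, followed by 61.9 per Mb in the middle cluster and 27.6 per Mb in the pericentromeric one. The strands were used unevenly. In the telomeric cluster the plus strand carried 122 sites and the minus strand 39, in the pericentromeric cluster 74 and 49, and in the middle cluster 38 and 58, while the other chromosome 19 sites were split 2144 to 2029. The exception was the plus-strand site at 52729670 in the middle cluster. It held 28163 of the clusters' 58489 reads (48.2%) and 82.6% of those in its own cluster.

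Most members lay near the lower limit of what these libraries can measure. At the threshold, 17 sites had 10 reads and 22 had 11, while 23 window sites with 9 reads and 34 with 8 fell just outside, among 2336 below the limit. Reads in every library were found at 53 members (13.9%), against 26.8% of other chromosome 19 sites. Most of the summed CPM (counts scaled to the size of the library, with TMM factors) came from 1 library at 160 members (42.1%), close to the 44.5% of other chromosome 19 sites with similar total reads. The library totals ranged from 1245270 reads in a GFP IP library to 9655646 in a STAU1 input library. STAU1 input replicate 1 stood apart: it had reads at 142 of the 380 members, against 275 in replicate 2, 256 and 272 in the STAU1 IP libraries and 231 and 294 in the GFP inputs. The GFP IP libraries, with 1291888 and 1245270 reads, had reads at 155 and 168 members.

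As a whole the clusters took a larger part of chromosome 19 in the STAU1 pull-down than in its input. Their share of chromosome 19 reads was 1.14% and 1.26% in the STAU1 IP libraries and 0.889% and 0.834% in the STAU1 inputs, and 0.677% and 0.803% in the GFP IP libraries and 0.968% and 0.940% in the GFP inputs. The means were 1.2% ± 0.0898 (SD, n = 2) and 0.861% ± 0.0389 for STAU1, and 0.740% ± 0.0887 and 0.954% ± 0.0197 for GFP. The groups did not overlap in either pull-down, in opposite directions. With 2 libraries against 2 the smallest two-sided exact permutation p is 0.333, so no test was made. In RNA from bulk cells, a change in the number of cells that carry a transcript and a change in the amount per cell cannot be told apart.

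The direction of the GFP share turned when the top sites were left out. Without the site with most reads in each cluster, the share was 0.585% ± 0.0161 in STAU1 IP and 0.376% ± 0.00643 in STAU1 input, a ratio of 1.56. In GFP it was 0.446% ± 0.0144 and 0.406% ± 0.00658, a ratio of 1.10, where the ratio with all sites was 0.776. Other chromosome 19 sites of similar total reads behaved much like the clusters in the STAU1 pull-down. Set against them, and again without the top sites, the clusters' reads were 0.976 ± 0.045 times the level of the similar sites in STAU1 IP and 0.947 ± 0.032 times in STAU1 input, which is a difference smaller than the spread between replicates. The same ratio was 0.909 ± 0.037 in GFP IP and 1.094 ± 0.047 in GFP input, and the libraries of these groups did not overlap. The middle cluster did not share that GFP difference, with 1.152 ± 0.136 in GFP IP and 1.153 ± 0.086 in GFP input. In the pericentromeric cluster the ratio was 0.841 ± 0.026 and 0.992 ± 0.066, and in the telomeric cluster 0.835 ± 0.134 and 1.109 ± 0.027. The ratio of STAU1 IP to input was 1.77 in the pericentromeric cluster, 1.94 in the middle cluster and 1.35 in the telomeric cluster, each without its top site and as a share of chromosome 19. The GFP ratios on this measure were 1.21, 1.41 and 0.946 in the same order. Against sites of similar reads, STAU1 IP and input stood at 1.05 and 0.99 in the pericentromeric cluster. They were 0.983 and 0.824 in the middle cluster and 0.94 and 0.977 in the telomeric cluster.

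**Figure D1:**
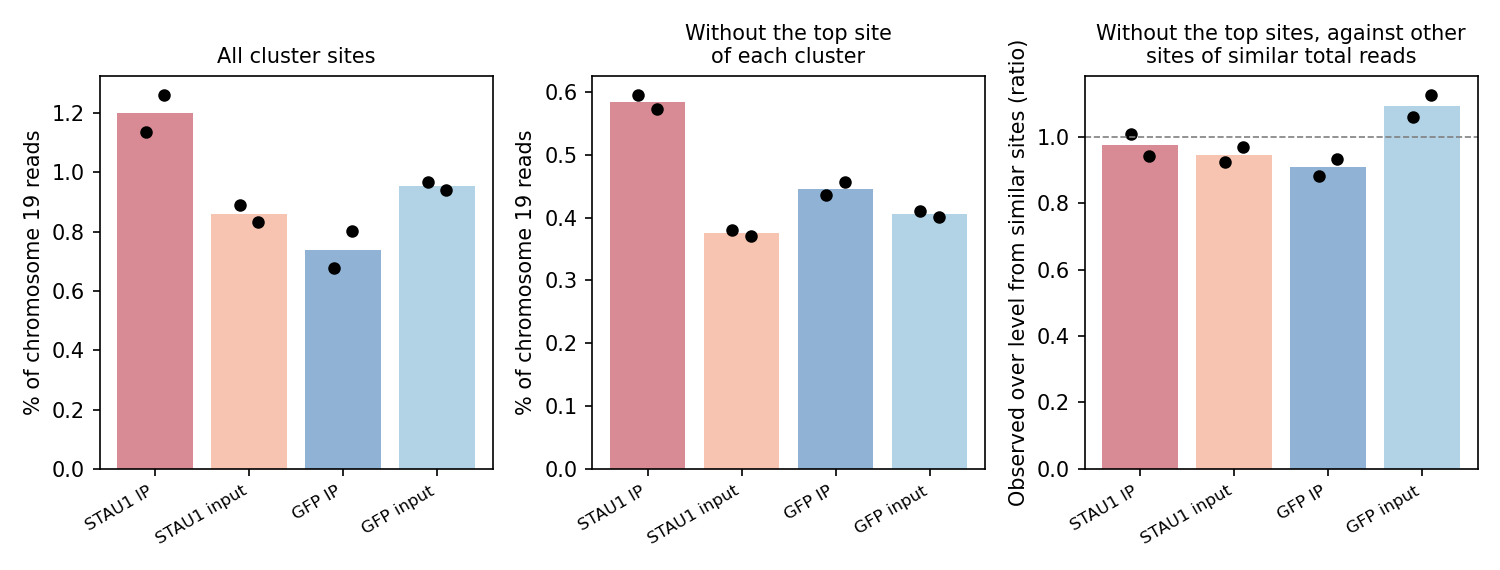
Share of chromosome 19 reads at cluster sites (y axis, percent; left, all 380 sites; middle, without the top site of each cluster) and reads at cluster sites without the top sites relative to other chromosome 19 sites of similar total reads (right, ratio) in the 4 pull-down groups; bars are means of the 2 libraries, which are the points. The STAU1 IP libraries lie above their inputs on the left and in the middle, and overlap them on the right.

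Site by site, the clusters leaned the same way as similar sites elsewhere on the chromosome in the STAU1 pull-down. In the GFP pull-down and between the inputs, the median of similar sites with at least 10 reads was near 0 and that of the clusters below it. On the log2 ratio of mean CPM plus 0.5, which understates changes at low sites, the median over all 380 members was 0.41 for STAU1 IP over STAU1 input, beside 0.17 over all 85917 sites. Averaged over 5 bins of total reads, the median was 0.41 for the clusters and 0.54 for other chromosome 19 sites, a difference of -0.13. For GFP IP over GFP input the median was -0.17, beside -0.14 over all sites. The binned median was -0.15 for the clusters and -0.002 for similar sites, a difference of -0.15. For the double ratio, the STAU1 ratio minus the GFP ratio, the median was 0.67, beside 0.44 over all sites, and the binned difference 0.06. The pericentromeric sites had the highest median double ratio, 0.86, which was 0.25 above similar sites, while the middle cluster was 0.04 below them and the telomeric cluster 0.004 above them. For STAU1 input over GFP input the median was -0.18. The binned median was -0.18 for the clusters and -0.009 for similar sites. The binned difference was -0.17, so the inputs themselves were about as far apart as the pull-down differences. Among the 131 members that passed the filter on low counts, the binned differences of edgeR's log2 fold changes were -0.40, -0.37, 0.41 and -0.16 for the 4 comparisons. The first of these was 0.04 without STAU1 IP replicate 1 and 0.43 without replicate 2. For GFP the binned medians of the tested sites were -0.14 in the clusters and 0.23 at similar sites.

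**Figure D2:**
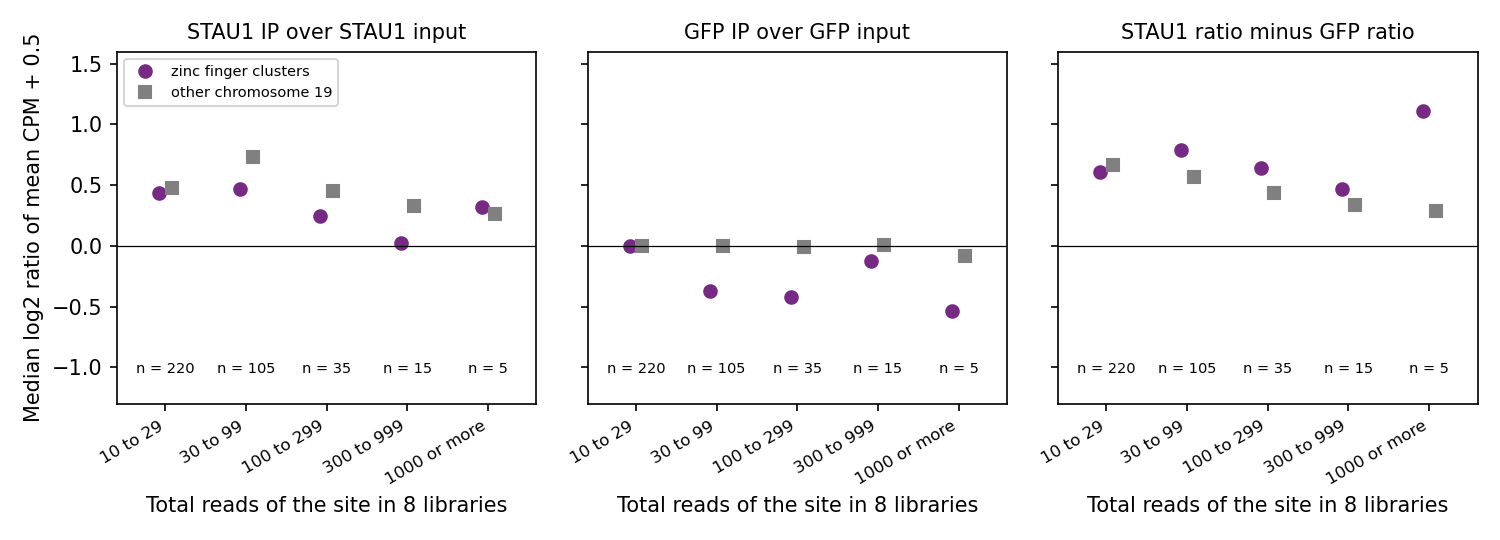
Median log2 ratio of mean CPM + 0.5 (y axis) at cluster sites (circles) and other chromosome 19 sites (squares) in bins of total reads (x axis), with the number of cluster sites in each bin. In the bin of 30 to 99 reads the cluster median was 0.47 and the other median 0.73 for STAU1, and -0.37 and 0 for GFP.

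The shares of members whose libraries did not overlap differed from those of all sites by a few percentage points in both pull-downs. Against similar chromosome 19 sites only, the share with GFP IP below its inputs was clearly higher. Both STAU1 IP libraries were above both inputs at 100 of the 380 members (26.3%), against 22.8% of all sites with at least 10 reads and 28.6% of other chromosome 19 sites at similar reads. Both were below at 31 members (8.16%), against 12.7% of all sites and 7.19% of the similar ones. For GFP, 40 members (10.5%) were above, against 11.8% of all sites and 12.6% of the similar ones. A further 95 members (25.0%) had both GFP IP libraries below both inputs, against 22.1% of all sites and 15.1% of the similar ones. These 95 sites were spread over the clusters, with 33 in the pericentromeric, 23 in the middle and 39 in the telomeric one. The GFP IP libraries were the smallest and had reads at only 155 and 168 of the 380 members. Similar sites were counted in the same libraries, and the part of depth in this result was not tested.

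Few single sites passed the test, and their number was close to what the whole table gave. With edgeR's quasi-likelihood test and Benjamini-Hochberg adjustment over 33744 sites, 4 of the 131 tested members rose and 1 fell in STAU1 IP over STAU1 input, where 3.06% of all sites tested rose and 2.99% fell. Among the other chromosome 19 sites, which have more reads, 145 of 1849 rose and 51 fell. In GFP IP over GFP input 1 rose and 2 fell, where 2.11% and 3.99% did. In the double ratio 1 rose and 0 fell, where 0.53% and 0.157% did, while 3 members had an unadjusted p under 0.05 for a fall and DESeq2 called 0. Between the inputs 0 rose and 0 fell, where 0.00889% and 0% did, while 5 and 4 members had an unadjusted p under 0.05 and DESeq2 also called 0. The filter on low counts (about 10 reads at the median depth, 1.67 CPM, in at least 2 libraries) left out 249 of the 380 members, some with up to 56 reads. A site can pass it through the group in which it is high and then has to differ. This held for 1 of the 4 members that rose for STAU1 (58808600), for the member that rose for GFP (58382347), and for 81 of the 1032 sites that rose for STAU1 in the whole table and 9 of the 711 for GFP, so these are no support for the counts. A fit of all sites with at least 10 reads was also made, to which the shares of all sites given above do not apply. In it 3 of the 380 members rose and 1 fell for STAU1, and 1 rose and 3 fell for GFP. Without a share over all sites beside them, these counts cannot be placed above or below the whole table. The minimum of 10 reads is not set by group, but 58808600, among the 3 that rose for STAU1, reached it only through STAU1 IP. For STAU1 the 5 calls became 1 without STAU1 IP replicate 1 and 8 without GFP IP replicate 1 or STAU1 input replicate 2. The 3 GFP calls became 7 without either STAU1 input library, and the 1 call in the double ratio became 5 without STAU1 input replicate 2.

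The member with the lowest p in the STAU1 pull-down was the minus-strand site at 52534632 in the middle cluster. It had 208 and 243 reads in STAU1 IP, 23 and 86 in STAU1 input, 28 and 30 in GFP IP, and 71 and 118 in GFP input. Both STAU1 IP libraries were above every other library in CPM as well. The log2 fold change in STAU1 IP over input was 2.35 ± 0.45 (SE, edgeR adjusted p = 0.002665), and that of GFP IP over input 0.71 (adjusted p = 0.473). The test of the difference between the pull-downs gave 1.64 (adjusted p = 0.3089), so that a difference from GFP was not shown. The STAU1 value was 1.79 when STAU1 input replicate 1 was left out and 3.12 when replicate 2 was, both past the threshold.

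A further pair of plus-strand sites rose in the STAU1 pull-down and had reads in every library, though the second had only 9 in STAU1 input replicate 1. The site at 58379977 in the telomeric cluster had 185 and 176 reads in STAU1 IP, 53 and 79 in STAU1 input, 9 and 20 in GFP IP, and 51 and 101 in GFP input. Its log2 fold change was 1.64 ± 0.47 (edgeR adjusted p = 0.0445). The site at 21305435 in the pericentromeric cluster had 98 and 104 reads in STAU1 IP, 9 and 39 in STAU1 input, 4 and 4 in GFP IP, and 31 and 22 in GFP input, with a log2 fold change of 2.38 ± 0.70 (adjusted p = 0.0499). At both sites the 2 STAU1 IP libraries were above both of their inputs. Neither call was firm: the first was lost without either STAU1 IP library (adjusted p = 0.165 and 0.174), without STAU1 input replicate 1 (0.122) or replicate 2 (0.0706), and in the fit of all sites with at least 10 reads (0.0733). The second was lost without STAU1 IP replicate 1 (adjusted p = 0.224) or 2 (0.319), STAU1 input replicate 1 (0.324, with a log2 value of 1.77), GFP IP replicate 2 (0.0555) or GFP input replicate 1 (0.0689) or 2 (0.0503), in the fit of all sites with at least 10 reads (0.106) and when only the STAU1 groups were fitted (0.0836). Without STAU1 input replicate 2 its value was 3.30 and the call held.

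At the plus-strand site at 58808600 in the telomeric cluster nearly all reads came from the STAU1 pull-down. It had 118 and 62 reads in STAU1 IP, 0 and 3 in STAU1 input, 0 and 0 in GFP IP, and 0 and 1 in GFP input. The site was thus next to absent from 6 of the 8 libraries. With so few input reads, the ratio of STAU1 IP to input from the summed reads was 68.8, with a counting interval of 23.2 to 337, which covers counting error only. As no library outside STAU1 IP reached the filter's level, the p-value after that filter is not given. The site also reached 10 reads only through STAU1 IP, so the p-value of the fit of all sites with at least 10 reads is not given either. In the filtered fit the call was lost without STAU1 IP replicate 1. The fitted log2 value, 6.04, depends on the prior count, with 5.20 when STAU1 input replicate 1 was left out and 9.17 when replicate 2 was. More than 3 reads in STAU1 IP and at most 3 in its inputs were found at 122 of the 380 members (32.1%), against 24.3% of all sites with at least 10 reads and 30.9% of other chromosome 19 sites of similar reads. Of these members 64 had none in either input (16.8%), against 13.2% and 18%, so the clusters were close to the similar sites.

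The member that fell in the STAU1 pull-down was among the best covered. The minus-strand site at 58826155 in the telomeric cluster, with 2243 reads in all, had 160 and 193 reads in STAU1 IP, 346 and 548 in STAU1 input, 57 and 58 in GFP IP, and 434 and 447 in GFP input. In CPM both STAU1 IP libraries were below every other library. The log2 fold change was -1.14 ± 0.27 (edgeR adjusted p = 0.0129) for STAU1 and -0.54 (adjusted p = 0.347) for GFP, and the difference between them, -0.59, did not pass (adjusted p = 0.62). Without STAU1 IP replicate 1 the STAU1 call was lost (-0.98, adjusted p = 0.244). A plus-strand site lay 414 nt away at 58826569, at the higher coordinate, so that unspliced transcripts ending at these 2 sites would overlap over that length, on opposite strands.

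The GFP pull-down, the control for the tag, set apart the dominant site of the clusters. At 52729670 the reads were 3982 and 4927 in STAU1 IP, 3229 and 4981 in STAU1 input, 296 and 444 in GFP IP, and 4888 and 5416 in GFP input. In CPM these were 615.2 and 811.7, 579.2 and 565.9, 204.6 and 323.6, and 694.3 and 695.0, so that both GFP IP libraries were below all the others. The log2 fold change was -1.40 ± 0.21 (edgeR adjusted p = 0.000341) in GFP IP over input and 0.32 (adjusted p = 0.429) in STAU1 IP over input. The double ratio was 1.71 ± 0.29 (adjusted p = 0.00728), the only member called in that comparison. Its call held under every scaling, under DESeq2 and without each of the 8 libraries in turn. The value is a difference between the pull-downs in which the STAU1 libraries stayed near their input and the GFP libraries were low.

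The remaining members called in the GFP pull-down were the plus-strand sites at 21309542 and 58382347. The first, in the pericentromeric cluster, had 43 and 35 reads in STAU1 IP, 77 and 170 in STAU1 input, 5 and 4 in GFP IP, and 141 and 170 in GFP input. It was lower in both pull-downs than in their inputs in all libraries, with log2 fold changes of -2.70 ± 0.58 in GFP (edgeR adjusted p = 0.00657) and -1.42 in STAU1 (adjusted p = 0.0921). The second, in the telomeric cluster, had 51 and 5 reads in STAU1 IP, 0 and 9 in STAU1 input, 12 and 9 in GFP IP, and 0 and 0 in GFP input. Against a floor of 3 reads over both GFP inputs it was at least 36.8-fold higher in GFP IP. It passed the filter through GFP IP, so the p-value of that fit is not given. In the fit of all sites with at least 10 reads the edgeR adjusted p was 0.00162, while DESeq2 gave it no adjusted p. It lay 2370 nt downstream of the site at 58379977 that rose in the STAU1 pull-down, in the same run of sites.

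**Figure D3:**
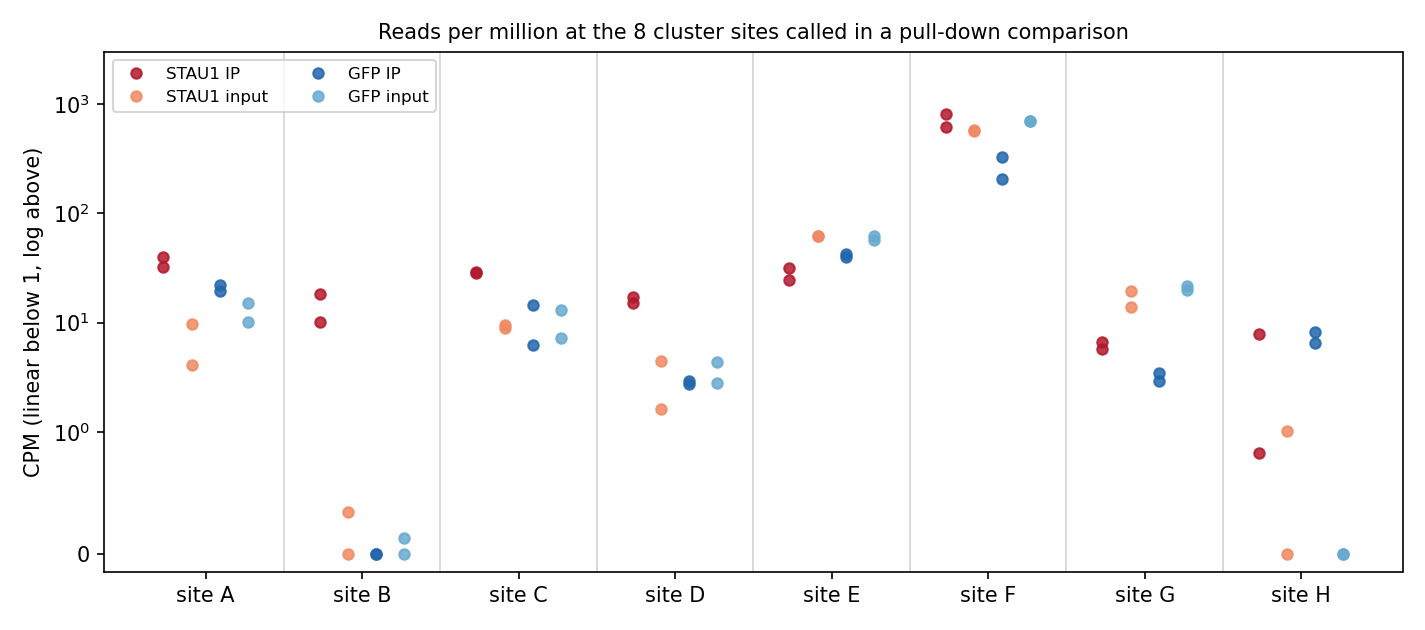
CPM (y axis, linear below 1 and logarithmic above) in each of the 8 pull-down libraries at the 8 members called in any comparison; each point is a library. Sites A to H are 52534632 (minus strand), 58808600, 58379977, 21305435 (plus), 58826155 (minus), 52729670, 21309542 and 58382347 (plus). Both STAU1 IP points lie above both STAU1 input points at sites A to D and F, and below them at sites E and G. Both GFP IP points lie below all others at sites F and G.

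The other members with most reads in their clusters did not pass the test in any comparison. The plus-strand site at 57819920, the top site of the telomeric cluster, had 461 and 450 reads in STAU1 IP, 355 and 627 in STAU1 input, 99 and 115 in GFP IP, and 409 and 558 in GFP input, with log2 fold changes of 0.11 and 0.23 in STAU1 and GFP. The minus-strand site at 58637697 had 414 and 249 reads in STAU1 IP and 141 and 169 in its input, a value of 1.24 that missed the threshold (edgeR adjusted p = 0.0585). The plus-strand site at 57734212 had 234 and 173 in STAU1 IP, 81 and 154 in STAU1 input, 13 and 25 in GFP IP, and 192 and 184 in GFP input. Its values pointed apart, 1.01 in STAU1 and -0.91 in GFP, and their difference, 1.92, did not pass (adjusted p = 0.148). In the pericentromeric cluster the plus-strand site at 24223694 was near 0 in both, at -0.10 and 0.19, while the minus-strand site at 23909504 was -1.07 in STAU1 and 0.07 in GFP, and the plus-strand site at 21374980 was -0.10 and -0.16. In the middle cluster the plus-strand sites at 52729602, 52795969 and 52824966 were 0.74, 0.81 and 0.02 in STAU1 and -0.43, 1.39 and -0.13 in GFP. In the telomeric cluster the plus-strand site at 57871263 was 0.80 and 0.32.

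Summing neighbouring sites raised the counts behind each value. Neighbouring sites of a strand with gaps of up to 5000 nt were joined into 193 runs, of which 118 (61.1%) held 1 site, against 59.4% of runs elsewhere on chromosome 19, and the longest held 12. Of the 98 runs tested, 8 rose and 2 fell in STAU1 IP over input (edgeR's quasi-likelihood test, Benjamini-Hochberg over 20381 runs), where 4.53% of all runs rose and 5.61% fell. In the GFP pull-down 0 rose and 2 fell, where 3.78% and 6% did, while 7 cluster runs had an unadjusted p under 0.05 for a rise and DESeq2 called 1. In the double ratio 1 rose and 0 fell, where 0.839% and 0.574% did, while 2 had an unadjusted p under 0.05 for a fall and DESeq2 called 0. Between the inputs 0 rose and 0 fell, where 0.00491% and 0% did, while 0 and 4 runs had an unadjusted p under 0.05 and DESeq2 called 0. Elsewhere on chromosome 19, 131 of 1236 runs rose and 63 fell, so the clusters' rises, 8 of 98, were not above the share of their own chromosome. Of the 8 runs, 3 (at 58808600, 20115906 and 58295299) passed the filter through STAU1 IP only and are no support for the count. The same held for 86 of the 923 in the whole table and 8 of the 131. With all runs that passed only through the group in which they were high left out, 5 of 83 cluster runs rose. Across the genome 837 of 16435 did, and 123 of 999 elsewhere on chromosome 19. The cluster share was then close to that of all runs and below that of their own chromosome. Without STAU1 IP replicate 1, 4 cluster runs in all were called. Without STAU1 input replicate 1 or 2, 6 or 5 runs were called in GFP, and without replicate 2, 6 in the double ratio. The GFP count was 1 without GFP IP replicate 1 or either GFP input, and the count in the double ratio was 2 without GFP IP replicate 2.

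Among the other 5 runs that rose, the lowest p was that of the run of 12 plus-strand sites from 58376479 to 58385524 in the telomeric cluster. Its summed reads were 352 and 335 in STAU1 IP, 82 and 155 in STAU1 input, 34 and 49 in GFP IP, and 139 and 178 in GFP input. The STAU1 log2 fold change was 1.63 ± 0.30 (edgeR adjusted p = 0.00197) and that of GFP 0.49 (adjusted p = 0.411), with a difference of 1.13 that did not pass (adjusted p = 0.246). The site at 58379977 held most of these reads. The next site, at 58376479, had 50 and 66 reads in STAU1 IP and 29 and 26 in its input, and at 58384852 they were 21 and 12 against 0 and 5. The run of 9 plus-strand sites from 57843701 to 57851815 had 113 and 119 reads in STAU1 IP and 22 and 42 in STAU1 input (1.95, adjusted p = 0.0421). This call was lost without either STAU1 IP library (adjusted p = 0.133 and 0.198) or STAU1 input replicate 1 (0.108), and in the fit of all runs (0.0550). In it 1 site, at 57847360, had 17 and 17 reads in STAU1 IP and 0 in the other 6 libraries.

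The remaining runs that rose were all on the minus strand, apart from that at 58808600, and some had hardly any input reads. In the middle cluster, the run of 7 sites from 53202611 to 53210524 had 145 and 65 reads in STAU1 IP and 14 and 48 in its input (1.91, edgeR adjusted p = 0.0443), and without STAU1 IP replicate 1 its value was 1.29 (adjusted p = 0.453). Without STAU1 input replicate 1 that call was lost too (adjusted p = 0.175), and without replicate 2 the value was 2.59. It was also lost with the replicate block (0.0539) and when only the STAU1 groups were fitted (0.0977). Its site at 53205135 gave 80 and 46 of the STAU1 IP reads and 14 and 35 of the input reads. The run of 5 minus-strand sites from 21466083 to 21474013 had 84 and 42 reads against 4 and 15 (2.86, adjusted p = 0.0346). Its site at 21469738 gave 38 in each STAU1 IP library and 3 and 4 in the inputs. The single minus-strand site at 20115906 had 32 and 21 reads in STAU1 IP and none in STAU1 input, and so was at least 20.3-fold higher against a floor of 3 reads over both inputs. The single minus-strand site at 58295299 had 38 and 30 reads in STAU1 IP and 0 and 1 in its input, a ratio of 78.0 (counting interval 13.5 to 3120). It also had 3 and 2 reads in GFP IP and 0 in both GFP inputs, so it was higher in both pull-downs. The call at 21466083 was lost without STAU1 IP replicate 1 (adjusted p = 0.344) or STAU1 input replicate 1 (0.116) and when only the STAU1 groups were fitted (0.0733), and without STAU1 input replicate 2 its value was 3.63. The sites at 20115906 and 58295299 passed the filter through STAU1 IP, so the p-values of that fit are not given. In the fit of all runs the edgeR adjusted p was 0.0342 for the first. The second was not called there, and as it reached 10 reads only through STAU1 IP, no p-value is given for it. In the filtered fit neither was called without STAU1 IP replicate 1 or 2 or without STAU1 input replicate 1, nor the first without STAU1 input replicate 2. The runs of the sites at 52534632 and 58808600, described above, hold those sites alone.

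The runs that fell in the STAU1 pull-down were both telomeric. The plus-strand run at 57876675 and 57876726 had 19 and 12 reads in STAU1 IP, 82 and 106 in STAU1 input, 2 and 10 in GFP IP, and 109 and 114 in GFP input. All 4 pull-down libraries were below all 4 inputs in CPM, with a log2 fold change of -2.57 ± 0.62 in STAU1 (edgeR adjusted p = 0.0135) and -1.78 in GFP (adjusted p = 0.12). Without STAU1 IP replicate 2 the STAU1 call was lost (adjusted p = 0.0627). The minus-strand run from 58823416 to 58826155, made up almost wholly of the site at 58826155, had -1.22 ± 0.24 (adjusted p = 0.00302). In the GFP pull-down the run from 52729602 to 52730687 fell by 1.34 on the log2 scale (adjusted p = 0.000292), and its double ratio was 1.54 ± 0.28 (adjusted p = 0.0100). The run from 21301253 to 21309542 fell by 1.32 in GFP (adjusted p = 0.0331), a call that was lost without either GFP IP library (adjusted p = 0.11 and 0.217) or either GFP input (0.0914 and 0.143), with RLE factors or library totals in place of TMM (0.0558 and 0.0882), and with DESeq2 (0.0590).

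Neighbouring 3' ends, which may or may not belong to the same gene, were compared in pairs made of the 2 sites with most reads in a run. In the clusters 10 pairs had enough reads. None was called in any of the 3 pull-down comparisons (edgeR over 3729 pairs), where 0.402% of all pairs were called for STAU1, 0.0268% for GFP and 0% for the double ratio. At an unadjusted p under 0.05 there were 1, 2 and 1 of the 10, and no other tool was run on pairs. The pair with the lowest p for STAU1 was that of the pericentromeric sites 21305435 and 21309542, 4107 nt apart on the plus strand. The distal site held 30.5% and 25.2% of the pair's reads in STAU1 IP, 89.5% and 81.3% in STAU1 input, 55.6% and 50.0% in GFP IP, and 82.0% and 88.5% in GFP input. Both pull-downs were below their inputs without overlap, but each GFP IP library had 9 reads or fewer in the pair. The STAU1 change in the distal-to-proximal log2 ratio was -3.93 ± 0.83 (adjusted p = 0.0737), that of GFP was -2.39 ± 0.98 (adjusted p = 0.356), and the difference between them was -1.54 ± 1.27 (adjusted p = 0.783). The STAU1 change was called when pairs had to have a mean of 30 reads, and without STAU1 input replicate 2.

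The last of the run's 7 sites was lower in the pull-downs as a share of the whole run too. Reads at the last site were 20.9% and 18.5% of the run in STAU1 IP, 70.6% and 70.8% in STAU1 input, 29.4% and 30.8% in GFP IP, and 77.5% and 77.6% in GFP input. Both pull-downs were thus below all 4 inputs in this share. This split at the last site was chosen after its values were seen, and it has no test. Among the upstream sites, that at 21305954 had 16 and 12 reads in STAU1 IP and 0 in both STAU1 inputs, and that at 21306565 had 28 and 9 against 0 and 1. At 21305407, only 28 nt from the site that rose, there were 14 and 16 reads against 20 and 20, a log2 value of -0.28, and at 21307502 there were 1 and 0 against 0 and 10, so the sites of the run did not move as 1 block.

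**Figure D4:**
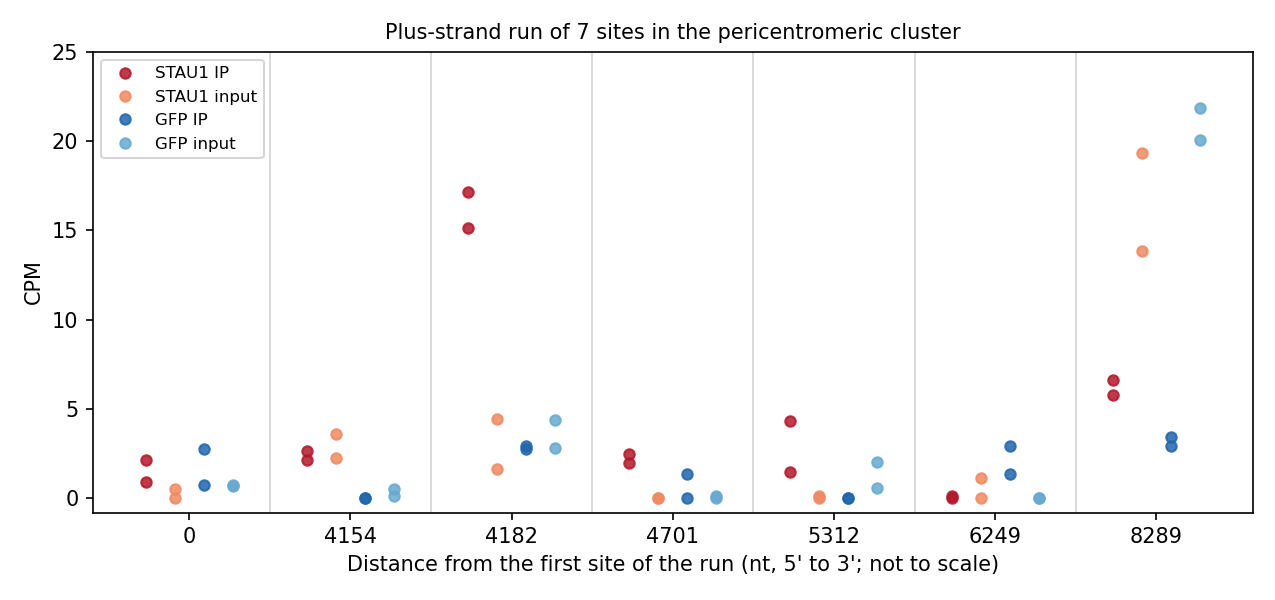
CPM (y axis) in the 8 pull-down libraries at the 7 sites of the plus-strand run from 21301253 to 21309542, placed in order with the distance from the first site in nt (x axis, not to scale); each point is a library. The STAU1 IP points are highest at 4182 nt, and all input points are highest at the last site, 8289 nt.

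In the other 9 pairs the STAU1 change had an unadjusted p above 0.05, and most were too thin to judge. At 57815213 and 57819920 the distal site held 96.8% ± 2.19 (SD, n = 2) in STAU1 IP and 97.1% ± 2.33 in STAU1 input, and 99.5% ± 0.707 and 92.8% ± 3.96 in the GFP libraries. At 58376479 and 58379977 it held 75.7% ± 4.24 in STAU1 IP and 69.9% ± 7.5 in STAU1 input. At 58826569 and 58827018 the distal site held 81.3% ± 1.27 in STAU1 IP, 49.4% ± 0.778 in STAU1 input, 17.8% ± 25.2 in GFP IP and 53.8% ± 30.9 in GFP input, the wide GFP values resting on 15 reads in the pull-down. Of the 10 pairs, that at 53205135 and 53202611 on the minus strand was the only one whose distal site had no reads in STAU1 input, against 39 and 8 reads in STAU1 IP. Its log2 change, 5.52 ± 2.68, was further from 0 than that of the pericentromeric pair but did not pass (edgeR adjusted p = 0.41).

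In the fractions the dominant site differed from the sum of the clusters without their top sites, but not from the range of single members. At 52729670 there were 1616 reads in wild-type cytoplasm, 1527 in wild-type polysomes, 2010 in knockout cytoplasm and 2562 in knockout polysomes. The log2 polysome-to-cytoplasm ratio came to -0.28 in wild type, with an exact 95% binomial counting interval of -0.38 to -0.17, and 0.05 in the knockout (-0.04 to 0.13). Knockout minus wild type was 0.32 (0.19 to 0.46). Among the 18 members with at least 20 reads in each fraction library, wild-type ratios ran from -0.61 to 1.15, so this site was at neither end. Library totals in place of TMM raise every wild-type ratio by 0.25 and every knockout ratio by 0.20, and so lower each difference by 0.05. With them the site stood at -0.03 (-0.13 to 0.07) in wild type and 0.24 (0.16 to 0.33) in the knockout, so on which side of 0 each genotype lay depended on the scaling, while the difference stayed above 0 at 0.27 (0.14 to 0.40). With 1 library per condition this compares 4 libraries, not genotypes, and the intervals cover counting error only. Summed over the 108 cluster sites without the top site of each cluster, the ratio was 0.31 in wild type (0.20 to 0.42) and 0.17 in the knockout (0.08 to 0.27), with a difference of -0.13 (-0.28 to 0.01). With library totals these were 0.56 (0.45 to 0.67), 0.37 (0.27 to 0.47) and -0.19 (-0.33 to -0.04), an interval that no longer included 0. With TMM, to be set beside the 0.31 and 0.17 above, the other chromosome 19 sites summed to -0.05 in wild type and -0.08 in the knockout.

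At the members with most reads the median ratio was near 0. Most of the 111 members had too few reads to enter these medians, and the wild-type sum without the top sites was higher, at 0.31. Only 4 members had at least 50 reads in each fraction library, with medians of -0.21 in wild type and -0.10 in the knockout. With 18 members at 20 reads or more the medians were -0.03 and 0.03, against -0.07 and -0.07 at 225 other chromosome 19 sites of similar reads. Besides the dominant site, these were the minus-strand site at 58826155, at -0.61 in wild type (-1.01 to -0.21; -0.36 with library totals, -0.77 to 0.04) and -0.12 in the knockout (-0.55 to 0.30), and the plus-strand sites at 58269513, at -0.15 and -0.24, and 52824966, at 0.12 and -0.07. The last 2 had intervals that included 0 in both genotypes.

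A few of the members between 20 and 50 reads lay away from 0 beyond counting error. The plus-strand site at 58826569 had 33 reads in wild-type cytoplasm and 84 in wild-type polysomes, and 58 and 86 in the knockout, which gave log2 ratios of 1.15 (0.56 to 1.78) and 0.27 (-0.23 to 0.77) and a difference of -0.89 (-1.64 to -0.13). It is the neighbour, on the opposite strand, of the site at 58826155, whose ratio lay on the other side of 0. The pericentromeric site at 21309542 was the distal site of its pair and low in both pull-downs. It had 46 and 97 reads in wild type and 88 and 171 in the knockout. Its ratios were 0.88 (0.36 to 1.42) and 0.66 (0.28 to 1.04), above 0 in both genotypes. The telomeric plus-strand site at 58357604 had 38 and 32 reads in wild type and 32 and 56 in the knockout, and its difference of 0.95 (0.02 to 1.87) just cleared 0, and with library totals did not (0.89, -0.03 to 1.82). The site at 52534632, which rose in the STAU1 pull-down, was -0.42 (-1.27 to 0.42) in wild type and 0.22 (-0.46 to 0.92) in the knockout, too few reads to place it on either side. Of the 18 sites, 9 were above 0 in wild type and 10 in the knockout. With library totals in place of TMM, 10 and 14 were.

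**Figure D5:**
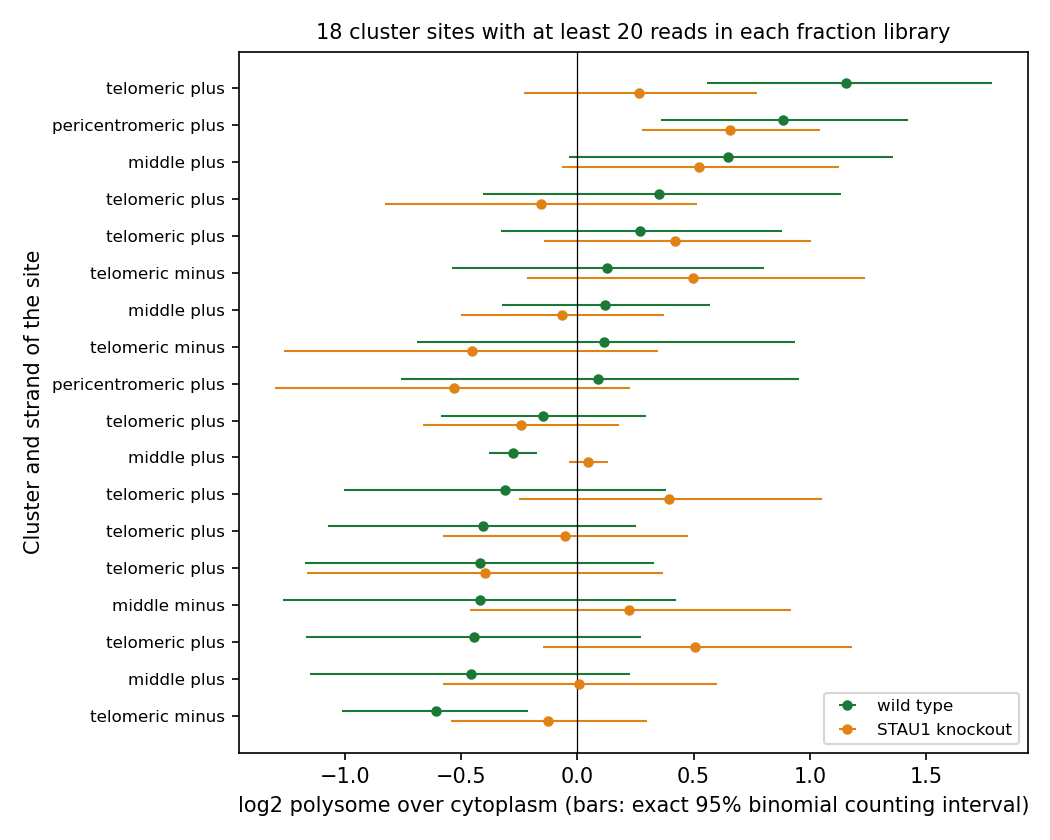
Log2 ratio of polysome to cytoplasm (x axis) in wild-type and STAU1-knockout cells at the 18 cluster sites with at least 20 reads in each fraction library, ordered by the wild-type value, 1 library per condition; bars are exact 95% binomial counting intervals. The dominant middle-cluster site has the narrowest bars, at -0.28 and 0.05, and the highest wild-type value is 1.15.

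The tables largely listed the same ends. Of the 111 members in the fractions, 103 lay within 24 nt of a member in the pull-downs, and 92 were at the same position. Among the sites with most reads in the fractions, the plus-strand site at 21274562 had 19 reads in wild-type cytoplasm, 18 in wild-type polysomes, 36 in knockout cytoplasm and 16 in knockout polysomes, a knockout ratio of -1.47 (-2.42 to -0.59) beside -0.27 (-1.29 to 0.74) in wild type. The difference of -1.20 had an interval of -2.46 to 0.06. The plus-strand site at 21374980 had 8, 23, 22 and 35 reads in the same order and stood at 1.33 (0.12 to 2.70) in wild type and 0.37 in the knockout. The minus-strand site at 23437858, with 10, 14, 13 and 31 reads, was at 0.29 and 0.95, with intervals that included 0, the second of which did not with library totals (1.15, 0.17 to 2.20).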

How the data were processed

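The aligner was STAR and the genome build hg19, per the submitters' processing notes. Versions, settings and how sites were clustered are not given in the sources used here. What the authors deposited are raw counts of reads at poly(A) sites, with 1 column per library, in separate tables for the 8 pull-down and the 4 fraction libraries, and each table was analysed on its own. The members and the tests were chosen with earlier results of these data known.

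The counts were tested with the quasi-likelihood fit of edgeR 4.0.16 (R 4.3.3). It covered 4 groups and 8 libraries, leaving 4 residual degrees of freedom, after filterByExpr by group and TMM scaling. Adjusted p-values (Benjamini-Hochberg) run over all 33744 sites kept by that filter, and the threshold was 0.05. Runs (sums of sites with gaps of at most 5000 nt) and pairs (the 2 sites of a run with most reads, both averaging 10 or more reads per library and lying 100 nt or more apart, in a model of library, site and site by group) were fitted likewise over the whole genome. Of 131 tested members, that with the fewest reads had 16. CPM values use TMM-scaled library sizes, and the ratios of CPM at all 380 members a pseudocount of 0.5 CPM. Similar total reads means the same of 5 bins with lower edges 10, 30, 100, 300 and 1000, whose medians were averaged with the clusters' counts. Ratios at sites with 3 input reads or fewer are from reads summed over a group. Fractions have no test. Library totals ranged from 1245270 to 9655646 reads in the pull-downs and from 2799226 to 3483937 in the fractions. One read is 0.114 to 0.729 CPM, and intervals cover counting error only, as PCR reads are not independent molecules.

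Named sites are those called in a comparison (up to 10 per direction by p), the 5 with most reads per cluster and table, called runs and pairs, and in the fractions those with at least 50 reads in each library. The others were chosen after their values were seen. Correlations of same-numbered libraries' deviations from their group means were between -0.023 and 0.021. Same-numbered libraries thus did not deviate together, which cannot show whether they shared a culture or a lysate. The scripts were tested on simulated data. Alternatives were DESeq2 1.42.0, RLE factors, library totals, no filter, fewer groups, a replicate block, other gaps, minimums and bins, and each library left out. Gene names, gene lists and the level of the STAU1 transcript were not analysed here, for want of an hg19 annotation.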

Additional observations from a re-analysis of the deposited data

Results flagged for a closer look

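The plus-strand site at 52729670, which held 48.2% of all reads in the clusters, had a double ratio of 1.71 ± 0.29 (log2, edgeR adjusted p = 0.00728). It is listed because the effect of the pull-down differed between STAU1-FLAG and FLAG-GFP by the test of the difference itself. Its log2 fold change over input was 0.32 with STAU1-FLAG and -1.40 with FLAG-GFP, and both GFP IP libraries lay below the other 6 in CPM. The run from 52729602 to 52730687, which this site dominates, is listed for the same reason, with a double ratio of 1.54 ± 0.28 (adjusted p = 0.0100). What set the GFP value was not tested.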

How the results depend on the processing

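The calls were few, so their number moved with the processing. Of the single sites and runs named, 259 values under the alternatives kept their direction and side of the threshold, 46 lost significance and 0 changed direction. For STAU1 IP over STAU1 input, 5 cluster sites were called in the main analysis, 8 with library totals and 9 with DESeq2, and 1 to 8 when a library was left out. The low value was without STAU1 IP replicate 1. The 10 runs became 4 to 13 with a library left out. For GFP IP over GFP input the 3 sites became 3 to 7 without a library, and the 2 runs became 1 with RLE factors or library totals, 5 when only the groups of the comparison were fitted and 1 to 6 without a library, with 5 or 6 called without a STAU1 input library. In the double ratio the 1 site became 1 to 5 and the 1 run 1 to 6, in both cases highest without STAU1 input replicate 2. Between the inputs, 0 to 1 runs were called. The 0 pairs called for STAU1 became 0 to 1, and 1 with a mean of at least 30 reads; the cause was not tested. Library totals in place of TMM raised every STAU1 log2 ratio by 0.14 and every GFP log2 ratio by 0.31, and turned the split of all sites called in GFP from 711 higher and 1348 lower to 1211 and 751. The same scaling turned the STAU1 split from 1032 and 1008 to 1417 and 834, so values within these shifts of 0 have no firm direction. The median of the clusters minus that of similar sites, -0.40 for STAU1 at tested sites, was -0.13 at all sites with at least 10 reads and ranged from -0.25 to 0.43 without a library, a change of sign that came with a changed set of tested sites. For the inputs, -0.16, it ranged from -1.15 to -0.11. The log2 ratio of the clusters' chromosome 19 share in STAU1 IP over input, 0.48, was 0.64 without the top site of each cluster, 0.21 against sites of similar reads and 0.044 with both, and that of GFP, -0.37, was 0.14 without the top sites, -0.54 against sites of similar reads and -0.27 with both. The comparisons with similar reads and the sums over fraction runs were chosen after seeing the data. The replicate block called 7 sites and 8 runs for STAU1, 4 sites and 2 runs for GFP, 1 site and 1 run in the double ratio and 0 pairs in the 3 comparisons. The labels do not say what same-numbered libraries share beyond the number. DESeq2 called the same cluster sites for STAU1 and 4 more, and gave no call for 1 of the 2 GFP runs; 1 of the 3 GFP sites had no adjusted p there. The filter on low counts left out 249 of 380 members, which entered only the fit of all sites with at least 10 reads. In the fractions, library totals raised the log2 ratios by 0.25 in wild type and 0.20 in the knockout.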
